A study of Mus musculus with 5 samples.

Results

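The potassium channel family was taken as every protein-coding gene whose symbol begins with Kcn, followed by further letters and a digit. This rule found 93 genes of the 55573 mouse genes measured, in 20 subfamilies named by the letters after Kcn. It takes in pore-forming subunits and the auxiliary subunits that share the prefix, and it uses no expression value. RNA sequencing had been done on 3 tumors and on normal pancreas from 2 libraries. The tumors came from mice of the genotype Th-Cre:MYC, bred from TH-Cre and CAG-STOPflox/flox-MYC mice and followed by ultrasound. In these animals the tyrosine hydroxylase (Th) promoter drives Cre, and Cre removes a stop cassette before a MYC transgene. The normal pancreas came from wild type littermates and was perfused with RNAlater, an RNase inhibitor solution, before it was taken out. The labels state no such perfusion for the tumors and give no age, sex or batch. Library numbers in the deposited data fall in separate number ranges for tumors and normal pancreas, and their meaning is not stated. In the titles, 86 stands for tumor replicates 1 and 2 alike and 114 for replicate 3; whether 86 is a single animal is not stated. The spread behind each p-value is thus the spread of these libraries, and it may be technical. The series title speaks of neuroblastoma, whereas its design text speaks of pancreas tumor.

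Potassium channels let potassium ions leave the cell and so hold or restore a negative membrane potential. Voltage-gated channels (Kcna to Kcnd, Kcnh, Kcnq and others) open on depolarization, inward rectifiers (Kcnj) and tandem-pore leak channels (Kcnk) set the resting potential, and the Kcnma, Kcnn and Kcnt groups respond to calcium or sodium inside the cell. Auxiliary subunits (Kcnab, Kcne, Kcnip, Kcnmb) bind the pores and change their gating or traffic. In the endocrine pancreas, channels made of Kcnj11 and the sulfonylurea receptor Abcc8 close when ATP rises, which depolarizes the cell and leads to hormone release. In secretory epithelia, potassium channels keep up the electrical driving force for fluid secretion.

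The libraries differed widely in composition, which bears on every comparison. Total estimated counts were 6611967 to 15074489 in tumors, against 48848987 and 51669489 in normal pancreas. A list of 31 acinar digestive enzyme genes took 0.0101% to 0.511% of the counts in tumors and 85.6% and 86.3% in normal pancreas. Genes annotated as misc_RNA took 22.0% to 25.3% of the counts in tumors and 0.00116% and 0.000319% in normal pancreas. The cause of this difference was not tested. Calls and fold changes between tissues therefore rest on counts after TMM scaling (trimmed mean of M-values), printed as CPM, estimated counts per fixed library size. Comparisons between genes and sums over genes are given in TPM, a transcript abundance corrected for gene length. TPM values of both tissues are set side by side as shares of each library. All 8 acinar markers were lower and all 10 endocrine markers were higher in the tumors. The endocrine markers, which include chromogranins and secretogranins, summed to 5657, 2807 and 5875 CPM in tumors, against 24.5 and 26.1 CPM in normal pancreas. Of 6 sympathetic neuron markers, only Th was higher in tumors (428, 194 and 15 counts, against 0 and 0 in normal pancreas), and Dbh was at 0 in all 5 libraries.

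More members were detected in the tumors. Estimated counts of at least 0.5 were found for 79, 79 and 74 members in tumors, against 47 and 46 in normal pancreas. These are 79.6% to 84.9% of the 93 members in tumors and 50.5% and 49.5% in normal pancreas, where 70.3% to 74.0% of all protein-coding genes were detected in tumors and 65.5% and 64.8% in normal pancreas. After TMM scaling, the library sizes were 14440614 to 37625958 in tumors and 13225679 and 13577736 in normal pancreas. On this scale the normal libraries were the smaller ones, though close to tumor replicate 3. In total counts, tumor replicate 3 was the smallest library (6611967). The filter on low counts kept 63 members, and 30 were not tested. By edgeR's quasi-likelihood test with Benjamini-Hochberg adjustment over 16810 genes, 37 members were higher in tumors, 9 were lower and 17 did not pass the threshold of 0.05. Among all genes tested, 39.2% were higher and 27.8% lower, and the shares among the 63 members were 58.7% and 14.3%. Among protein-coding genes the shares were 35.3% and 31.1%. Against a fold change of 2, 32 members were higher and 9 lower, where 26.2% and 14.1% of all genes were called. The median log2 fold change (tumor over normal pancreas) was 3.95 over the tested members and 0.38 over all tested genes. With genes at 0 in a tissue set to the bound that a floor of 3 counts allows, the medians were 2.67 for the members and 0.38 for all genes. Of the 63 tested members, 50 passed the filter through the tumor libraries only. The medians and counts over them, also by subfamily below, are thus no independent sign of a direction. By this route 35 members were higher and 1 lower, against 4370 and 161 of 6982 genes. The normal libraries would have passed the other 13 members, of which 2 were higher and 8 lower, against 2217 and 4494 of 9808 genes. Scaling by total counts alone shifted the median of all genes to 3.55 and gave 57 members higher and 3 lower, where 93.3% and 2.37% of all genes were called. Without normal pancreas replicate 1, fewer members were called higher. The median log2 fold change was then 4.16 over the tested members and 0.47 over all tested genes. The CPM ranges of the tissues were apart with tumors higher for 47 tested members (46.8% of all genes tested) and with tumors lower for 9 (34.2% of all genes tested). In bulk tissue, fewer cells of a type and less RNA per cell cannot be told apart. All 8 acinar and all 10 endocrine markers also differed between the tissues. Their part in these results was not tested.

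**Figure D1:**
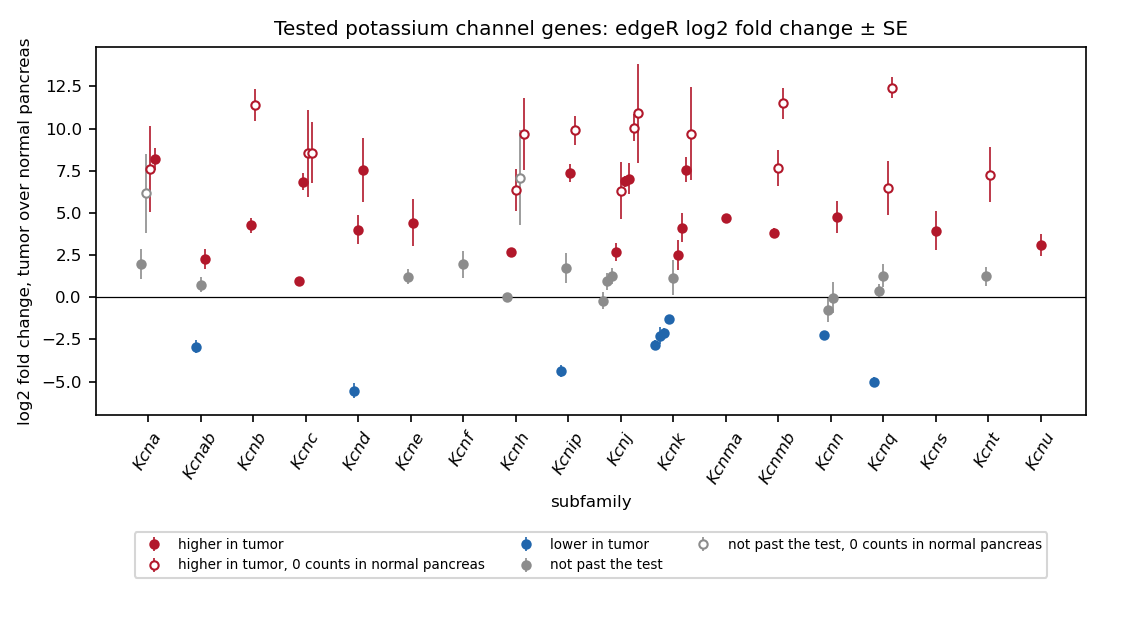
Log2 fold changes (tumor over normal pancreas) with their standard errors for the 63 tested members, by subfamily. Red points are higher, blue points lower and grey points not past the test; open points had 0 counts in both normal pancreas libraries, so that their height depends on the prior count and is no measured fold.

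The summed TPM of all 93 members was 198.3, 126.8 and 124.2 in tumors, against 23.2 and 23.9 in normal pancreas. Every tumor lay above both normal libraries, with means of 149.7 ± 42.0 and 23.5 ± 0.516 TPM (SD, n = 3 and n = 2). An exact permutation test of the difference gave p = 0.1, the smallest value that 3 against 2 libraries allow. TPM is a share of the library, and misc_RNA genes took 63.0% to 66.2% of it in tumors, whereas the acinar enzymes took 82.0% and 83.6% in normal pancreas. The other protein-coding genes took 12.9% to 17.2% of TPM in tumors and 15.1% and 16.6% in normal pancreas.

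The leading members differed between the tissues. Kcnk16 held 39.2%, 18.0% and 23.2% of the family's TPM in tumors, against 0.302% and 0.251% in normal pancreas. Kcnk1 held 4.62%, 6.33% and 6.31% in tumors, against 34.8% and 35.2% in normal pancreas, where it led. Kcnq1 held 0.863%, 0.702% and 0.387% in tumors, against 26.5% and 25.0% in normal pancreas. Without Kcnk16, the sum was still 120.5, 103.9 and 95.4 TPM in tumors, against 23.1 and 23.8 TPM in normal pancreas. By role, the tandem-pore channels reached 54.5 ± 29.7 TPM in tumors and 9.87 ± 0.474 TPM in normal pancreas, and the voltage-gated pores 32.8 ± 3.73 TPM in tumors and 8.51 ± 0.262 TPM in normal pancreas (SD, n = 3 and n = 2). The auxiliary subunits reached 34.8 ± 7.496 TPM in tumors and 3.10 ± 0.431 TPM in normal pancreas (SD, n = 3 and n = 2). Inward rectifiers reached 18.1 ± 1.48 TPM in tumors and 0.455 ± 0.149 TPM in normal pancreas. The calcium or sodium activated channels with Kcnu1 reached 9.48 ± 2.14 TPM in tumors and 1.61 ± 0.0636 TPM in normal pancreas. The summed TPM of the tissues overlapped in the Kcnd, Kcnn, Kcnq and Kcnv subfamilies, and the Kcnn members summed to 1.98, 1.97 and 0.91 TPM in tumors and 1.43 and 1.49 TPM in normal pancreas. The 9 lower members stood in 6 subfamilies (Kcnab, Kcnd, Kcnip, Kcnk, Kcnn and Kcnq), and each of these 6 also held a higher member.

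**Figure D2:**
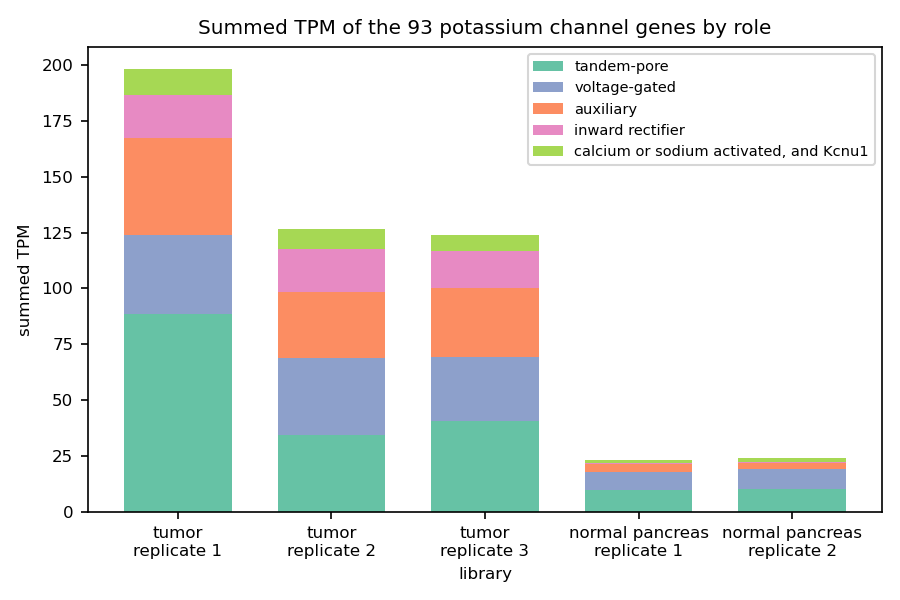
Summed TPM of the 93 members in each library, stacked by role. The tumors reach 198.3, 126.8 and 124.2 TPM and the normal pancreas libraries 23.2 and 23.9 TPM, and the tandem-pore block of tumor replicate 1 is the tallest.

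**Figure D3:**
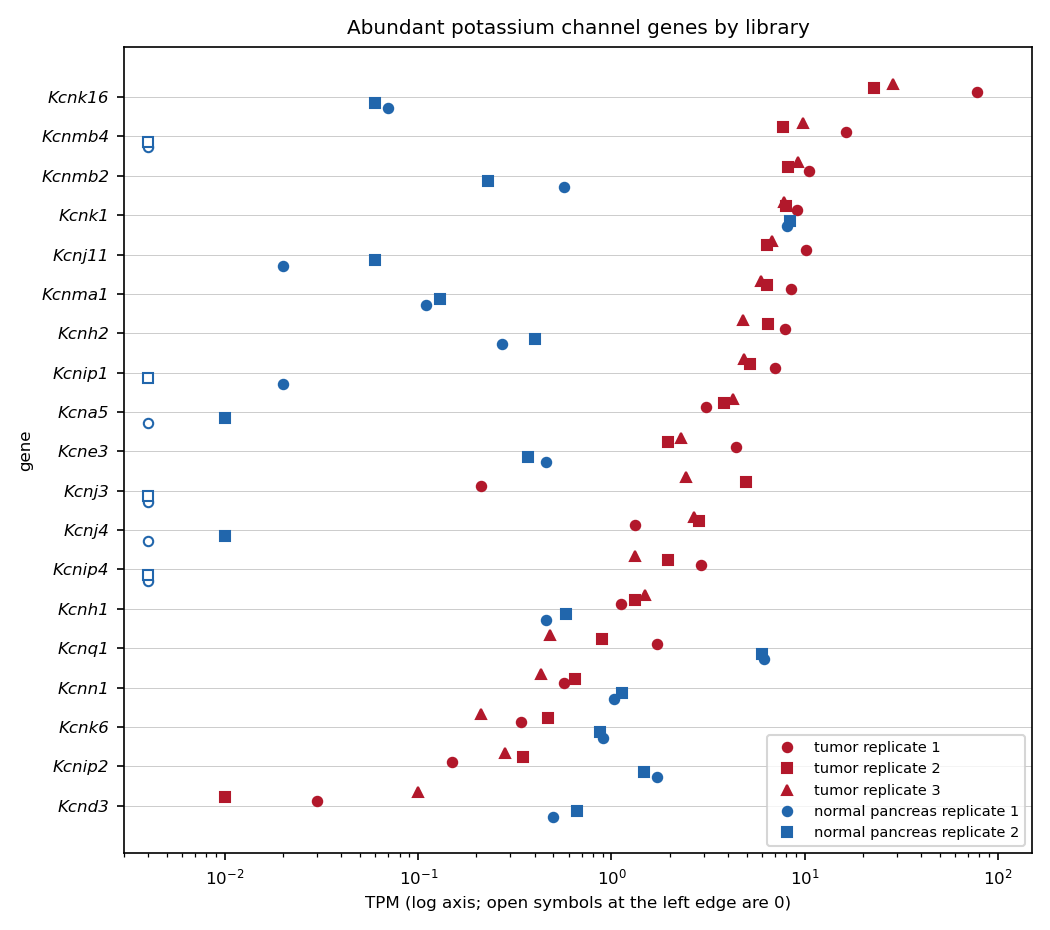
TPM of 19 abundant members in each library on a log axis, with open symbols for values of 0. Kcnk16 leads in every tumor, Kcnk1 lies at the same TPM in both tissues, and Kcnq1, Kcnn1, Kcnk6, Kcnip2 and Kcnd3 lie further right in normal pancreas.

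Among the tandem-pore leak channels, 9 of 14 members were tested, of which 4 rose, 4 fell and 1 missed the threshold. Kcnk16, a leak channel opened by alkaline conditions outside the cell and known for pancreatic islets, had 131, 40.9 and 63.6 CPM in tumors, against 0.454 and 0.368 CPM in normal pancreas. All 3 tumors were far above both normal libraries, and replicate 1 was the highest tumor. The log2 fold change was 7.56 (SE 0.745, adjusted p = 0.000266), and without tumor replicate 1 it was 6.97. Its level of 43.1 ± 30.2 TPM was the highest of all members in tumors, against 0.065 ± 0.00707 TPM in normal pancreas (SD, n = 3 and n = 2). Kcnk1, a widely expressed leak channel of epithelia and brain, had 18.8, 18.9 and 20.6 CPM in tumors and 45.1 and 48.3 CPM in normal pancreas. The groups were apart and the tumors close to each other, with a log2 fold change of -1.27 (SE 0.128, adjusted p = 0.000294). This direction rests on the scaling, since total counts alone gave 1.91, and Kcnk1 had 8.34 ± 0.708 TPM in tumors and 8.24 ± 0.255 TPM in normal pancreas.

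Kcnk5, an acid-sensitive leak channel known for kidney epithelium, lies beside Kcnk16 on chromosome 14, and this pair of neighbors moved in opposite directions. Kcnk5 (20140057 to 20181809, minus strand, build GRCm38) and Kcnk16 (20261376 to 20269199, minus strand) are 79566 bases apart. Kcnk5 had 0.718, 0.743 and 0.762 CPM in tumors and 3.33 and 3.17 CPM in normal pancreas. The tumors were all below both normal libraries, with a log2 fold change of -2.13 (SE 0.327, adjusted p = 0.00167), which total counts alone turned to 1.05. The promoter windows of the pair come from RefSeq (GRCm38.p6, 250 bases before to 50 after the start). This pair was picked because the neighbors differ in CG content as well as in direction. The Kcnk16 window lies wholly outside the Kcnk16 gene span given above, which comes from GENCODE and not from RefSeq. The Kcnk16 window is chr14:20269220-20269519 and the Kcnk5 window chr14:20181733-20182032, both on the minus strand, 5′ to 3′, with every CG dinucleotide in capitals.
Kcnk16: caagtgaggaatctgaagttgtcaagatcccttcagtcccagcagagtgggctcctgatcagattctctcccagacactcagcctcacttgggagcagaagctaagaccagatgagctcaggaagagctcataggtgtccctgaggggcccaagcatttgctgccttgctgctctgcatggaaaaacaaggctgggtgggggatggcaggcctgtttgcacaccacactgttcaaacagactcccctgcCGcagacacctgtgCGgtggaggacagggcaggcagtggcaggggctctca
Kcnk5: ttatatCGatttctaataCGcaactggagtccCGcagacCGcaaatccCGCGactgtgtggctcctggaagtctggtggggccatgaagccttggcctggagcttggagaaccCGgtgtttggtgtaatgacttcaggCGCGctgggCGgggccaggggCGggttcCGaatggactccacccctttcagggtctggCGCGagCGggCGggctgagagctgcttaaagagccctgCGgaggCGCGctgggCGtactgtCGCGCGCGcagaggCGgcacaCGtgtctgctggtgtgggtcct
The Kcnk16 window holds 2 CG dinucleotides, and 23.3% of the 32851 RefSeq promoter windows hold as few or fewer. The Kcnk5 window holds 26, and 16.9% of all windows hold as many or more. Windows of higher members held from 1 (Kcnmb1) to 48 (Kcnmb4), with a median of 9. Those of lower members held from 10 (Kcnk1) to 26 (Kcnk5), with a median of 17. A link between CG content and direction was not tested. The letters CACGTG, the same on both strands, are present in the Kcnk5 window and not in the Kcnk16 window. Over the 68 members with a window, 7 of their 93 windows hold these letters (7.53%), against 7.15% of all windows.

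Of the other tandem-pore members, Kcnk6 and Kcnk3 fell and Kcnk10, Kcnk12 and Kcnk13 rose. Kcnk6, a leak channel known for lysosomes and vascular muscle, had 1.46, 2.17 and 1.18 CPM in tumors and 11.6 and 11.6 CPM in normal pancreas, with a log2 fold change of -2.82 (SE 0.281, adjusted p = 0.000279), which total counts alone turned to 0.37. Kcnk3, an acid-inhibited leak channel, had 0.771, 0.588 and 0.693 CPM in tumors, against 1.66 and 5.01 CPM in normal pancreas. Its fall (log2 fold change -2.28, adjusted p = 0.00867) was lost without normal pancreas replicate 2 (-1.26, adjusted p = 0.111) and turned to 0.91 with total counts alone. Kcnk10, a leak channel opened by stretch and lipids, had 0.452, 3.93 and 9.76 CPM in tumors and 0 counts in normal pancreas, at least 30.2-fold higher against a floor of 3 counts over both normal libraries (adjusted p = 0.0248). The tumors spread widely, with a bound of 51.2 without tumor replicate 1 and 18.4 without replicate 3, and the call was lost without normal pancreas replicate 1 or 2 (adjusted p = 0.0891 and 0.0898). Here and below, every such bound was 1.97 to 2.03 times smaller without either normal pancreas library. Kcnk12 and Kcnk13, which encode closely related subunits, were also higher, with adjusted p-values of 0.00563 and 0.0448. Kcnk13 lost its call without tumor replicate 2 (log2 fold change 1.77, adjusted p = 0.0916), without tumor replicate 3 (adjusted p = 0.0743) and without normal pancreas replicate 1 or 2 (adjusted p = 0.136 and 0.191). Kcnk2, a stretch-sensitive relative of Kcnk10, had 0.532, 2.29 and 0.90 CPM in tumors and 0.0756 and 1.03 CPM in normal pancreas and did not pass the test (adjusted p = 0.342).

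Inward rectifiers held 6 higher members, 3 that did not pass and none lower among 9 tested, and 6 were not tested. Of those tested, only Kcnj2 would have passed the filter through the normal libraries. The lack of a lower member is therefore no independent result. Kcnj11, the pore of the ATP-sensitive channel, had 30.8, 21.4 and 27.9 CPM in tumors, against 0.151 and 0.295 CPM in normal pancreas. It lies on chromosome 7 (46093953 to 46100764, minus strand, GRCm38). The 3 tumors lay close together and far above both normal libraries, with a log2 fold change of 6.86 (SE 0.348, adjusted p = 3.22e-05). Kcnj8, the pore of the vascular ATP-sensitive channel, had 8.03, 5.23 and 2.98 CPM in tumors and 0.605 and 1.10 CPM in normal pancreas. All tumors were above both normal libraries, and the log2 fold change was 2.67 (SE 0.546, adjusted p = 0.00544). Smooth muscle and pericyte markers, 7 of 7 of them higher, summed to 278, 402 and 336 CPM in tumors, against 34.2 and 42.1 CPM in normal pancreas. Rgs5 alone gave 178.8, 278.4 and 221 CPM of the tumor sums, and the markers did not all order the tumors alike. Myh11 was highest in replicate 1, Rgs5 in replicate 2 and Cspg4 in replicate 3. The part of these markers in the Kcnj8 result was not tested.

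The G protein gated inward rectifiers Kcnj3, Kcnj6 and Kcnj9, which open after inhibitory receptors are activated, had no counts in normal pancreas. Kcnj6 had 5.24, 5.17 and 7.69 CPM in tumors, at least 50.3-fold higher (adjusted p = 0.000241), and its tumors differed little. Kcnj3 had 0.930, 19.4 and 12.3 CPM in tumors, at least 88.8-fold higher (adjusted p = 0.0202), with tumor replicate 1 far below the others. Its bound was 36.5 without tumor replicate 2 and 153.5 without tumor replicate 1, and its call was lost without normal pancreas replicate 1 (adjusted p = 0.0749) or replicate 2 (adjusted p = 0.0757). A long noncoding gene on the opposite strand, Gm26794, shares 31.1% of the exon bases of Kcnj3 and had 10, 37 and 16 counts in tumors and none in normal pancreas. No source used here says whether counting used strand, so reads of such pairs cannot be told apart. Kcnj9 had 0.186, 0.527 and 0.693 CPM in tumors (at least 3.601-fold, adjusted p = 0.0203), and its call was also lost without normal pancreas replicate 1 or 2 (adjusted p = 0.0703 and 0.0713). Kcnj5, the heart partner of Kcnj3, had 3, 1 and 0 counts in tumors and none in normal pancreas and was not tested.

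Of the remaining inward rectifiers, Kcnj4, a strong rectifier known for heart and brain, had 2.90, 6.63 and 7.48 CPM in tumors, against 0 and 0.0737 CPM in normal pancreas. All tumors were higher, with a ratio of pooled counts of 136.9 (95% exact interval 24.4 to 5422, counting error only; adjusted p = 0.000799). Without normal pancreas replicate 1 the ratio was 69.4, and without replicate 2 it was a bound of 22.5. Kcnj2, a strong rectifier of muscle and many other tissues, had 10.8, 4.12 and 4.36 CPM in tumors and 2.72 and 2.73 CPM in normal pancreas. Its ranges were apart, with replicate 1 the highest tumor, but the adjusted p was 0.0607. Kcnj10 and Kcnj15 gave adjusted p-values of 0.147 and 0.740.

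Channels opened by internal calcium or sodium, counted together with their relative Kcnu1, held 4 higher members, 1 lower and 3 that did not pass. Kcnma1, the pore of the large-conductance calcium-activated channel, had 46.7, 40.6 and 44.6 CPM in tumors, against 1.59 and 1.77 CPM in normal pancreas. Both tissues were tight and far apart, with a log2 fold change of 4.71 (SE 0.181, adjusted p = 2.08e-05), the smallest adjusted p among the members. Its beta subunits Kcnmb1, Kcnmb2 and Kcnmb4, which alter calcium sensitivity and inactivation, were all higher. Kcnmb2 had 22.0, 17.2 and 24.0 CPM in tumors and 1.06 and 1.92 CPM in normal pancreas (log2 fold change 3.82, SE 0.305, adjusted p = 0.000121). Kcnmb4 had 21.5, 10.6 and 16.3 CPM in tumors and 0 counts in normal pancreas, at least 146.9-fold higher (adjusted p = 0.000242). Kcnmb4os2, on the opposite strand over 20.8% of its exon bases, had 78, 30 and 17 counts in tumors and 1 and 0 in normal pancreas. Kcnmb1, the beta subunit of smooth muscle, had 1.06, 0.960 and 1.38 CPM in tumors and 0 counts in normal pancreas (at least 9.64-fold, adjusted p = 0.00188), beside the smooth muscle markers given above. By TPM, Kcnmb4 and Kcnmb2 came next after Kcnk16 in tumors, at 11.3 ± 4.503 and 9.31 ± 1.15 TPM, against 0 and 0.4 ± 0.240 TPM in normal pancreas (SD, n = 3 and n = 2). Kcnmb3 had no counts in any library.

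The small and intermediate conductance channels went different ways. Kcnn1, a small-conductance channel of neurons, had 1.81, 2.14 and 1.45 CPM in tumors, against 7.94 and 9.13 CPM in normal pancreas. Its tumors were all below the normal libraries, with a log2 fold change of -2.23 (SE 0.250, adjusted p = 0.00045), which total counts alone turned to 0.96. Kcnn2, its close relative, had 1.67, 0.774 and 1.04 CPM in tumors and 0.0756 and 0 CPM in normal pancreas. Its ratio of pooled counts was 32.7 (95% exact interval 5.75 to 1305; adjusted p = 0.005), with a bound of 5.53 without normal pancreas replicate 1 and a ratio of 16.1 without replicate 2. Kcnn4, the intermediate-conductance channel of lymphocytes and secretory epithelia, had 0.904, 2.17 and 0.277 CPM in tumors and 2.04 and 1.84 CPM in normal pancreas, overlapping ranges with an adjusted p of 0.392. Kcnn3 ranged over 0.138 to 1.97 CPM in tumors, against 0.832 and 1.18 CPM in normal pancreas (adjusted p = 0.980). Kcnt1, a sodium-activated channel, had 1.22, 0.960 and 0.277 CPM in tumors and 0 counts in normal pancreas (at least 8.58-fold, adjusted p = 0.011). Kcnu1, a channel of sperm that responds to voltage and internal alkalinity rather than to calcium, had 0.851, 0.558 and 0.623 CPM in tumors and 0.0756 and 0.0737 CPM in normal pancreas (ratio of pooled counts 9.37, interval 2.48 to 79.2; adjusted p = 0.00619) and lost its call without normal pancreas replicate 1 or 2 (adjusted p = 0.0515 and 0.0521).

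Voltage-gated pores made up 40 of the members, of which 25 were tested, 16 rose, 2 fell and 7 did not pass. Kcnq1, which with Kcne subunits forms the slow repolarizing channel of heart and a basolateral channel of epithelia, had 2.52, 1.21 and 1.39 CPM in tumors, against 57.5 and 57.8 CPM in normal pancreas. It lies on chromosome 7 (143106362 to 143427042, plus strand, GRCm38). Both tissues were tight beside the gap between them, and Kcnq1 fell by 5.04 on the log2 scale (SE 0.314, adjusted p = 5.50e-05), a fall that kept its sign under every scaling tried. The antisense gene Kcnq1ot1, which shares 121 exon bases (2.96%) with Kcnq1, had 7781, 5386 and 1926 counts in tumors and 5 and 5 in normal pancreas. Duct markers summed to 85.2, 52.3 and 108.4 CPM in tumors, against 515.5 and 536 CPM in normal pancreas, with 4 of 7 lower and 1 higher. Muc1 alone gave 334.8 and 378.9 CPM of the normal sums, and the higher marker was Krt7. All 8 acinar markers were lower as well. The part of either marker list in the Kcnq1 result was not tested.

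Kcnq3, a channel subunit of neurons, had 0.292, 0.836 and 0.346 CPM in tumors and 0 counts in normal pancreas. Its bound was 4.55 (adjusted p = 0.0153; 2.75 without tumor replicate 2), and the call was lost without normal pancreas replicate 1 or 2 (adjusted p = 0.0579 and 0.0585). Kcnq5, a relative known from brain and muscle, had 4.36, 9.66 and 10.04 CPM in tumors and 5.97 and 6.11 CPM in normal pancreas. Its ranges overlapped, and it did not pass (adjusted p = 0.380).

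Kcnb2, a delayed rectifier of endocrine cells and neurons, had 9.38, 17.4 and 18.6 CPM in tumors and 0 counts in normal pancreas, at least 125.4-fold higher (adjusted p = 0.000279). All 3 tumors lay above both normal libraries. Among the electrically silent subunits that modify Kcnb channels, Kcns3 had 1.09, 0.527 and 0.277 CPM in tumors and 0 and 0.0737 CPM in normal pancreas, a ratio of pooled counts of 19.7 (interval 3.41 to 790.5; adjusted p = 0.0218) that was 12.1 without tumor replicate 1 and did not pass without normal pancreas replicate 1 or 2 (adjusted p = 0.119 and 0.0534). Kcnf1 had 0.452, 0.929 and 0.346 CPM in tumors and 0.0756 and 0.221 CPM in normal pancreas and did not pass (adjusted p = 0.0643), and none of the Kcng and Kcnv members could be tested.

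Kcnc1, Kcnc2 and Kcnc4, which encode fast channels known for rapid firing, rose. Kcnc2 had 12.2, 6.88 and 8.66 CPM in tumors and 0.0756 and 0.0737 CPM in normal pancreas, a ratio of pooled counts of 128.4 (interval 35.4 to 1062; adjusted p = 0.000104). Kcnc1 had 3.62, 0.650 and 2.08 CPM in tumors and 0 counts in normal pancreas (at least 19.8-fold, adjusted p = 0.00851), a bound that was 9.75 without tumor replicate 1. Kcnc4 ranged from 0.248 to 4.36 CPM in tumors and had 0 counts in normal pancreas (at least 20.5-fold, 5.74-fold without tumor replicate 1 and 31.9-fold without replicate 2; adjusted p = 0.03). Its call was lost without tumor replicate 3 (adjusted p = 0.0527) and without normal pancreas replicate 1 or 2 (adjusted p = 0.0964 and 0.0975).

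Kcna5 was the leading Kcna member. This delayed rectifier of heart and smooth muscle had 9.22, 12.1 and 16.3 CPM in tumors, against 0 and 0.0737 CPM in normal pancreas. The tumors were close together, with an adjusted p of 0.000111 and a ratio of pooled counts of 309.8 (interval 55.5 to 1.225e+04, counting error only). It was 156.9 without normal pancreas replicate 1 and a bound of 51.0 without replicate 2. Kcna3, the delayed rectifier of lymphocytes, had 0.106, 1.89 and 1.32 CPM in tumors and 0 counts in normal pancreas (at least 8.90-fold, adjusted p = 0.042). Tumor replicate 1 was near its floor of 3 counts, and the gene failed the low-count filter without tumor replicate 2 (bound 3.95) or replicate 3. Without tumor replicate 1 the bound was 15.3, and without normal pancreas replicate 1 or 2 the call was lost (adjusted p = 0.118 and 0.12). T and B cell markers summed to 1.75, 23.6 and 1.32 CPM in tumors and 8.17 and 2.36 CPM in normal pancreas, with 4 of 8 not past the test and 4 not tested, and their part in the Kcna3 result was not tested. Kcna2, a neuronal channel, had 0.558, 1.95 and 0.485 CPM in tumors and 0.151 and 0.368 CPM in normal pancreas (adjusted p = 0.0938). Kcna1, its usual partner in axons, had 4, 0 and 0 counts in tumors and 1 and 0 in normal pancreas.

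In the Kcnd subfamily, whose members carry the fast inactivating A-type current, Kcnd1 and Kcnd2 rose and Kcnd3 fell. Kcnd3 had 0.186, 0.124 and 0.485 CPM in tumors, against 9.90 and 11.6 CPM in normal pancreas. The ranges were far apart, and its fall of -5.53 on the log2 scale (SE 0.464, adjusted p = 0.000143) had the largest size of the 9 falls and kept its sign under every scaling tried. Kcnd2 had 0.904, 14.7 and 8.52 CPM in tumors and 0.0756 and 0 CPM in normal pancreas. Its ratio of pooled counts was 200.5 (interval 35.9 to 7932; adjusted p = 0.0119), and tumor replicate 1 lay far below the others. The ratio was 80.8 without tumor replicate 2 and 342.4 without replicate 1, and the call was lost without normal pancreas replicate 1 (bound 33.9, adjusted p = 0.0673) or replicate 2 (ratio 98.9, adjusted p = 0.0815). Kcnd1 had 2.47, 1.95 and 3.05 CPM in tumors and 0.302 and 0 CPM in normal pancreas (log2 fold change 3.997, adjusted p = 0.00671). The log2 fold change was 3.03 without normal pancreas replicate 2. Without normal pancreas replicate 1 the normal side was at 0 counts, so that fit gave no measured fold.

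Among the Kcnh channels, Kcnh2, which repolarizes the heart and is present in islet cells, had 18.8, 18.8 and 16.5 CPM in tumors and 2.57 and 2.95 CPM in normal pancreas. Its tumors lay within a narrow band above both normal libraries, with a log2 fold change of 2.71 (SE 0.175, adjusted p = 6.12e-05). Kcnh1, a brain channel of the same subfamily, had 8.72, 11.1 and 14.8 CPM in tumors and 10.6 and 12.2 CPM in normal pancreas, with a log2 fold change of 0.01 (SE 0.245, adjusted p = 0.981). Kcnh7 had 8.72, 1.02 and 4.09 CPM in tumors and 0 counts in normal pancreas (at least 44.5-fold, 17.6-fold without tumor replicate 1; adjusted p = 0.0101). Kcnh5 was also higher (at least 3.92-fold, adjusted p = 0.00684), and Kcnh8 did not pass (adjusted p = 0.0701).

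Auxiliary subunits moved in both directions. Of 12 tested, 7 rose, 2 fell and 3 did not pass, counting the Kcnmb members above. Kcnip2, a calcium-binding partner of Kcnd channels, had 0.372, 0.588 and 0.277 CPM in tumors, against 8.09 and 9.65 CPM in normal pancreas. Every tumor lay below both normal libraries, with a log2 fold change of -4.35 (SE 0.347, adjusted p = 0.00012), and kept its sign under every scaling tried. Kcnip1, a partner of the same kind known from neurons, had 15.3, 11.1 and 12.9 CPM in tumors and 0.151 and 0 CPM in normal pancreas, a ratio of pooled counts of 177.9 (interval 49.1 to 1471; adjusted p = 9.61e-05). Without normal pancreas replicate 1 it was a bound of 60.1, and without replicate 2 a ratio of 87.8. Kcnip4 had 6.88, 5.11 and 3.88 CPM in tumors and 0 counts in normal pancreas, at least 50.8-fold higher (adjusted p = 0.000376). Kcnip3, which also acts as a calcium-dependent transcription repressor, had 0.611, 4.18 and 5.47 CPM in tumors and 0.907 and 1.10 CPM in normal pancreas, overlapping ranges with an adjusted p of 0.131.

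Of the Kcne and Kcnab subunits, Kcne4 and Kcnab2 rose and Kcnab3 fell. Kcne3, an epithelial partner that keeps Kcnq1 open, had 3.96, 1.70 and 2.98 CPM in tumors and 1.36 and 1.10 CPM in normal pancreas. Its tumors were above both normal libraries, but the adjusted p was 0.0537. It passed in 9 of 16 alternative settings, among them DESeq2 (adjusted p = 0.0488) and upper-quartile scaling (adjusted p = 0.0406), and not without tumor replicate 1 (adjusted p = 0.123). Kcne4 had 1.12, 1.36 and 0.138 CPM in tumors and 0.0756 and 0 CPM in normal pancreas (ratio of pooled counts 28.0, interval 4.89 to 1117; adjusted p = 0.0295), and it failed the low-count filter without tumor replicate 1 or 2. Its call was lost without normal pancreas replicate 1 (bound 4.72, adjusted p = 0.0787) or replicate 2 (ratio 13.8, adjusted p = 0.151). Kcne1 had no counts in any library, and Kcne2 had 4, 0 and 0 counts in tumors and none in normal pancreas. Kcnab2, a cytoplasmic subunit with an oxidoreductase fold, had 1.65, 4.55 and 3.74 CPM in tumors and 0.832 and 0.515 CPM in normal pancreas (log2 fold change 2.28, SE 0.582, adjusted p = 0.0129), a call lost without normal pancreas replicate 1 or 2 (adjusted p = 0.0504 and 0.0877). Kcnab3 had 0.399, 0.434 and 0.415 CPM in tumors and 2.80 and 3.61 CPM in normal pancreas, and its fall (log2 fold change -2.93, SE 0.367, adjusted p = 0.000699) turned to 0.25 with total counts alone. Kcnab1 did not pass (adjusted p = 0.171).

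The tumors differed among themselves for some members far more than for others. For 8 of the 63 tested members the highest tumor had at least 10 times the CPM of the lowest, against 3.78% of all genes tested. These were Kcna3, Kcna4, Kcnc4, Kcnd2, Kcnh8, Kcnj3, Kcnk10 and Kcnn3. Kcna3, Kcna4, Kcnd2, Kcnj3 and Kcnk10 were lowest in tumor replicate 1, Kcnc4 and Kcnh8 were lowest in replicate 2, and Kcnn3 was lowest in replicate 3. They had 1 to 35 counts in their lowest tumor, and tumor replicate 3 was the shallowest of the tumors.

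**Figure D4:**
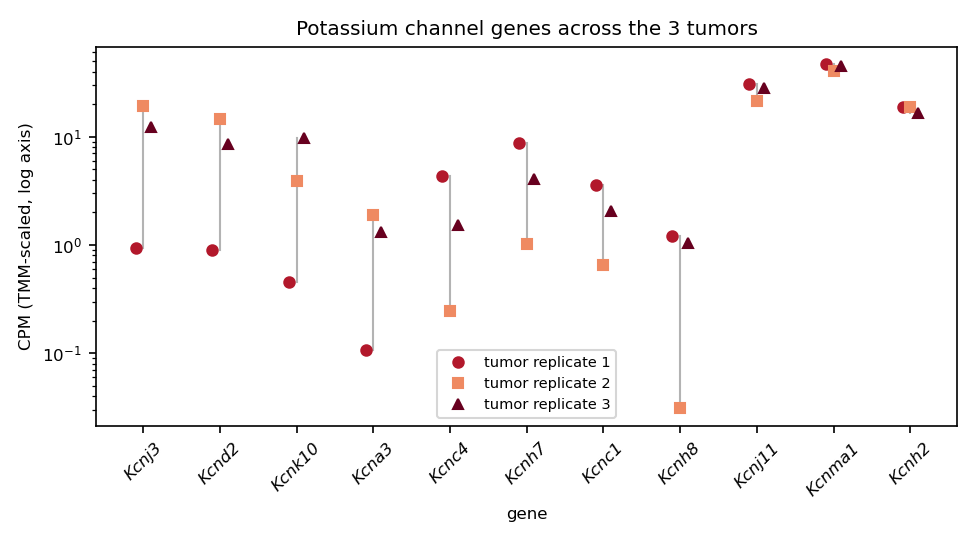
CPM of 11 members in the 3 tumors on a log axis, with a line over each gene's range; the genes were picked after their values were seen, to show wide and narrow spread. Kcnj3, Kcnd2 and Kcnk10 are lowest in tumor replicate 1, whereas Kcnj11, Kcnma1 and Kcnh2 lie close together in all 3 tumors.

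Genes that work with these channels, on a list of 34 outside the family, were higher in 18 cases and lower in 4, with 6 not past the test and 6 not tested. The list was chosen with earlier results known, and 39.2% of all genes tested were higher and 27.8% lower. Abcc8, the sulfonylurea receptor that assembles with Kcnj11, had 444, 178.9 and 368 CPM in tumors, against 0.227 and 0.147 CPM in normal pancreas. It was far higher in every tumor, with a log2 fold change of 10.75 (SE 0.685, adjusted p = 5.85e-05). Abcc9, the receptor of the vascular channel with Kcnj8, had 21.9, 17.4 and 13.4 CPM in tumors and 1.66 and 4.71 CPM in normal pancreas (log2 fold change 2.46, SE 0.443, adjusted p = 0.00322), beside the smooth muscle markers above. Lrrc26, a gamma subunit that lets Kcnma1 channels open at rest in secretory epithelia, had 0 counts in all tumors and 115 and 105 counts in normal pancreas. It was at least 231-fold lower in tumors against a floor of 3 counts over the tumors (adjusted p = 0.000195).

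Of the proteins that bind Kcna channels in axons, Lgi1 had 18.7, 25.4 and 35.6 CPM in tumors and 0 counts in normal pancreas, at least 215.6-fold higher (adjusted p = 0.000147). Adam22, the receptor of Lgi1, had 59.1, 49.1 and 87.5 CPM in tumors and 0.907 and 0.147 CPM in normal pancreas (log2 fold change 6.94, adjusted p = 0.000155). Dpp10, a partner of Kcnd channels, was at least 30.3-fold higher (adjusted p = 0.00039), and Amigo1, a partner of Kcnb channels, did not pass (adjusted p = 0.234). Upstream of the G protein gated rectifiers, the somatostatin receptor Sstr3 had 32.8, 26.6 and 25.9 CPM in tumors and 0 counts in normal pancreas, at least 261.5-fold higher (adjusted p = 3.47e-05). Its relative Sstr2 went the other way, with 0.505, 0.124 and 0.554 CPM in tumors and 17.3 and 21.8 CPM in normal pancreas (log2 fold change -5.69, SE 0.455, adjusted p = 0.000121). Gnao1, a G protein alpha subunit of neurons and endocrine cells, rose by 7.17 on the log2 scale (adjusted p = 3.50e-05), and Rgs4, which speeds G protein shut-off, rose by 8.06 (adjusted p = 1.72e-05). Of the inhibitory alpha subunits, Gnai1 (log2 fold change -1.45, adjusted p = 0.000149) and Gnai3 (-0.84, adjusted p = 0.00125) were lower, and Gnai2 did not pass (adjusted p = 0.860). In all, this group of 8 genes held 4 higher, 2 lower and 2 that did not pass.

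The 30 members that were not tested had at most 19 counts over the 5 libraries. Kcna10, Kcne1, Kcnj1, Kcnk4, Kcnk7, Kcnk15, Kcnk18 and Kcnmb3 were at 0 everywhere, which allows up to 3 counts in each library. The other 22 had between 1 and 19 counts, and among them Kcnh6, a relative of Kcnh2, had 2, 1 and 1 counts in tumors and none in normal pancreas. Kcnv1, a silent subunit, had 5 counts in tumor replicate 2 and none in the other 4 libraries. In all, 40 members were at 0 counts in both normal libraries, and 16 of them were among the 37 called higher.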

How the data were processed

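RNA sequencing libraries of 3 tumors and 2 normal pancreas samples were compared. The authors deposited estimated counts (RSEM expected counts) per gene, which need not be whole, and TPM values, a length-corrected transcript abundance. The submitters' processing notes list RSEM 1.31, STAR 2.7 and Trim Galore 0.60, and as builds GRCm38 and mm10. The sources used here state neither strandedness nor an annotation release. RSEM splits reads between genes that share sequence, so close paralogs and overlapping genes are less certain. Members were taken from the merged tables, whose values equalled those of the files per library. Gene coordinates are of GRCm38 (GENCODE M21), which shares 55180 of the 55573 gene identifiers, version included.

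Estimated counts were rounded and fitted with edgeR 4.0.16 in R 4.3.3 (TMM scaling, filterByExpr at its defaults, glmQLFit and glmQLFTest, Benjamini-Hochberg adjustment over 16810 genes, threshold 0.05), a procedure tested on simulated data, where the share of false calls was above the threshold. Log2 fold changes are tumor over normal pancreas. CPM uses the TMM-scaled library sizes, which were 14440614 to 37625958 in tumors and 13225679 and 13577736 in normal pancreas. For a gene at 0 in a tissue, the fold is a bound against 3 counts over that tissue; for 1 to 3 counts it is the ratio of pooled counts with an exact 95% interval. Floors and intervals cover counting error only. Alternatives were another scaling, DESeq2 1.42.0, other filters, limma 3.58.1 on log2(TPM + 1) and log2(TPM + 0.1), a test against a fold change of 2, tumor replicates 1 and 2 summed, and each library left out. Genes are named by fixed symbols, by the 8 largest rises and falls, by the 8 highest TPM values in each tissue, and by the smallest p in each subfamily; members named outside this rule (Kcna4, Kcnc4, Kcnd1, Kcnh5, Kcnh8, Kcnj10, Kcnj15, Kcnj2, Kcnj4, Kcnk12, Kcnk13, Kcnmb1, Kcnq3, Kcnq5, and those at 0 everywhere) were chosen after their values were seen. Results for some genes are not reported here. The members and lists were chosen with earlier results of these data known.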

Additional observations from a re-analysis of the deposited data

How the results depend on the processing

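The count of 37 higher members was 57 with total counts only, 22 with limma on log2(TPM + 1), and 24 to 39 with 1 library left out; limma tested 29 members, since its TPM filter keeps fewer genes. The 24 came without normal pancreas replicate 1 and 25 without replicate 2. The count of 9 lower members was 3 with total counts only and with limma on log2(TPM + 1) or log2(TPM + 0.1), and 8 or 9 with 1 library left out. The 4 lower partner genes became 2 in the same 3 settings, and 4 to 5 with 1 library left out, and the 18 higher ones became 26 with total counts only, 22 with both limma settings, and 17 to 20 with 1 library left out. The ratio of mean summed member TPM, 6.36, ran from 5.33 to 6.91 with 1 library left out and was 6.73 over protein-coding genes outside the acinar enzymes. DESeq2 called 41 members higher and 9 lower. Shares over all genes were counted only for the reported fit, total counts only and the test against a fold change of 2. The other counts here stand without such a share.

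The 16 alternative fits gave 633 values of 47 named members on the same side of the test, 26 weaker, 21 stronger and 18 of the opposite sign. With total counts only, the log2 fold change became 0.25 for Kcnab3, 1.91 for Kcnk1, 0.91 for Kcnk3, 1.05 for Kcnk5, 0.37 for Kcnk6, 0.96 for Kcnn1, 2.46 for Kcnn4 and 3.17 for Kcnn3; all 9 falls stayed below that scaling's median of 3.55 over all genes. Kcnk1 was 0.013 with limma on log2(TPM + 1) and 0.014 on log2(TPM + 0.1). Kcnn3, -0.03 as reported, was 0.12 with upper-quartile scaling, 0.021 with no filter, 0.07 with at least 10 counts in a group, 0.012 with protein-coding genes only, and -0.27 to 0.45 with 1 library left out (0.24 without normal pancreas replicate 2). With 1 library left out, Kcnh1 ran from -0.18 without tumor replicate 3 to 0.18 without tumor replicate 1 (-0.09 without normal pancreas replicate 1); it was called higher with total counts only (3.17) and with limma on log2(TPM + 1) (0.60) and log2(TPM + 0.1) (1.19). Apart from these constructions, the cause was not tested.

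No paired analysis was possible because the replicate numbers were given in accession order and tie no tumor to a normal pancreas sample. Depth limits the 30 members not tested: 3 counts correspond to 0.0797 to 0.208 CPM in a tumor and 0.221 to 0.227 CPM in a normal library. With 3 against 2 libraries, no exact permutation p can go below 0.1.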
